A study of Mus musculus with 8 samples.

Results

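The genes described here encode the nuclear subunits of the oxidative phosphorylation system, measured in 8 liver samples of old Ames dwarf mice. They were chosen by name from the array annotation: every probe set whose only gene symbol began with Nduf, Uqcr, Cox4 to Cox8 or Atp5, or was Sdha to Sdhd, Cyc1 or Cycs. This gave 101 of the 12422 non-control probe sets, for 73 of the 8251 genes with such a probe set. Of these genes, 29 belonged to complex I, 4 to complex II, 8 to complex III, 15 to complex IV and 14 to complex V. The other 3 were Cycs, which encodes the mobile carrier cytochrome c, and the complex I assembly factors Ndufaf1 and Ndufaf4.

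Each of the 8 samples is labelled as the liver of a female Ames dwarf mouse (df/df) with free access to water and a standard pelleted diet, killed at 24 to 26 months of age. The labels do not say in so many words that the samples came from 8 separate animals, so the spread between them may be technical in part. Ames dwarf mice do not make growth hormone, thyroid-stimulating hormone or prolactin, so all samples lacked these hormones alike. Total RNA of each sample was hybridised to an Affymetrix mouse U74Av2 array, on which a set of short probes (a probe set) reports on 1 transcript. The 8 samples, called livers 1 to 8 here, formed 1 group with no other genotype or diet to compare with, so the question the data allow is how far the subunits differed from liver to liver and whether they did so together.

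Complexes I and II take electrons from NADH and from succinate and pass them to ubiquinone. Complex III hands them to cytochrome c, complex IV transfers them to oxygen, and the proton gradient built up by complexes I, III and IV drives ATP synthesis by complex V. Liver mitochondria use this chain to burn fatty acids and to pay for gluconeogenesis and urea synthesis. Most subunits are encoded in the nucleus, and the transcription factors NRF-1, GABP (an ETS factor, also called NRF-2), YY1 and ERR-alpha are known regulators of many of them. The subunits encoded by mitochondrial DNA were not analysed here.

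The promoters of 6 of these genes are shown because the report turns on them: Cycs, the most variable gene of the set for its signal when each gene is judged by its brightest probe set, and in each complex the gene that followed the other subunits most closely among those with a promoter entry. They were chosen after their values were seen. Sequences are from RefSeq, build GRCm38.p6, 5′ to 3′ on the gene's own strand, from 120 bases before to 30 bases after the annotated start. Capitals mark a match to GCGCNTGCG (NRF-1) or CCGGAAG (ETS) on either strand, and no printed stretch held a match to AAGATGGCG (YY1) or to TATAAA, the TATA box motif.
Cycs (chr6:50566540-50566689, minus strand): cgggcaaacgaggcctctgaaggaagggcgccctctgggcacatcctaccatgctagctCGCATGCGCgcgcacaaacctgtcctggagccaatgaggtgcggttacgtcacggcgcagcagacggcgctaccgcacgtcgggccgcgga
Ndufb11 (chrX:20617590-20617739, minus strand): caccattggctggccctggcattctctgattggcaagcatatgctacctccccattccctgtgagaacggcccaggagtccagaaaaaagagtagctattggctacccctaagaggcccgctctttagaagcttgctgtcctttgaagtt
Sdhb (chr4:140961151-140961300, plus strand): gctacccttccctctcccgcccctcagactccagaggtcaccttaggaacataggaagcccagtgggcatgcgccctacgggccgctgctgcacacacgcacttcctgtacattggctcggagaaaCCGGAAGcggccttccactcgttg
Uqcrh (chr4:116075041-116075190, minus strand): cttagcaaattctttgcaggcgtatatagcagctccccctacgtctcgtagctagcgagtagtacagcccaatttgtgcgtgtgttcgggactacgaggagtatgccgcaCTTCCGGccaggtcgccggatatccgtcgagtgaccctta
Cox5b (chr1:36691367-36691516, plus strand): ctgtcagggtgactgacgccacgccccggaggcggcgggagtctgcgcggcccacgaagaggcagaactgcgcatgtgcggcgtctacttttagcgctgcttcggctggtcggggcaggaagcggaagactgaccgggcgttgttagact
Atp5e (chr2:174464072-174464221, minus strand): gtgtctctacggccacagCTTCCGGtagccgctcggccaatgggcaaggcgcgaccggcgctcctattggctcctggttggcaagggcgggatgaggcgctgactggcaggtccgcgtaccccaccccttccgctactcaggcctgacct

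RefSeq entries gave 64 promoters for 59 of the member genes, each a window from 250 bases before to 50 bases after the start. An NRF-1 match was present in 21 of the 64 member promoters (32.8%), against 6.31% of 32851 mouse promoters of the same length. An ETS match was present in 16 (25%), against 8.86% of all promoters, and a YY1 match in 5 (7.81%), against 1.40%. The TATA box, by contrast, was found in 7 member promoters (10.9%), against 13.6% of all. At least 1 of the NRF-1, ETS and YY1 matches was found in 35 (54.7%), against 14.9%. By complex, 12 of 28 promoters of complex I, 3 of 3 of complex II, 4 of 4 of complex III, 3 of 11 of complex IV and 10 of 15 of complex V held one. The member promoters had a median GC content of 58.8%, against 52.7% over all promoters, and GC-rich motifs are found more often in GC-rich sequence. A match is a stretch of letters and does not show that a factor binds there.

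Trimmed mean intensities of the arrays as deposited differed by only 0.00896%, so their like brightness is no measure of array quality. The median intensity ran between 156 in liver 3 and 181 in liver 8, and the correlation between pairs of arrays over the tested probe sets between 0.907 and 0.973. The livers carried the markers of their labelled tissue. Of 7 hepatocyte markers, 6 were on the array and all 6 were bright, from transthyretin (Ttr), with a lowest value of 5095, to albumin (Alb), with a highest value of 37059. Summed intensities of the 8 macrophage markers on the array were 15605.5 in liver 4 and 10803.5 in liver 8, and at most 6393 in the other 6 livers. The 10 interferon-induced and class II genes summed to 98593 in liver 4 and 73840.5 in liver 8, and to at most 23670.5 in the others. The acute phase genes, 5 of 6 on the array, summed to 59812 and 40197 in the same livers, and to at most 19320 in the others. Of the other marker lists, those of bile duct cells and brown fat had no gene above the signal filter described next. Stellate cell genes passed the variance test described below in 2 of 4 cases, against 9.97% of all tested probe sets. These were Col1a1 and Col3a1, both highest in liver 4 (806 and 454), whereas Des and Col1a2 were lowest there (139.4 and 1312.5). The summed stellate list was 2916 in liver 4 and 2743 in liver 8 and between 2289 and 2860 in the others. The lists of T cells, neutrophils and muscle had 1 gene each above the signal filter. That of red cell precursors had 2, that of B cells 3 and those of endothelial and stellate cells 4 each. Livers 4 and 8 thus stood apart in macrophage, interferon-induced, class II and acute phase genes. Results on the subunits are given with and without these livers.

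Probe sets were tested only where their mean log2 signal over the 8 livers was above the median of all probe sets, a signal of 162, because no detection calls were given and a dim signal could not be told from background. This filter kept 70 of the 101 member probe sets and 62 of the 73 genes. The 62 genes comprised 25 of 29 in complex I, 4 of 4 in complex II, 8 of 8 in complex III, 10 of 15 in complex IV, 12 of 14 in complex V, Cycs and both assembly factors. Where a gene had several tested probe sets, the brightest one stood for it. The 11 genes not tested were Ndufa1, Ndufa12, Ndufc2 and Ndufs4 of complex I, Cox5a, Cox6a2, Cox6b2, Cox7a1 and Cox8a of complex IV, and Atp5g1 and Atp5j2 of complex V. The dimmest, Cox8a, stayed at or below 65.7, and the brightest, Ndufs4, had a mean intensity of 147.

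Intensity depends on the probes as well as on the amount of RNA, so the levels below describe each probe set and do not rank the genes. Mean log2 signals, expressed as intensities, ran from 404 to 7798 over the complex I genes, from 1136 to 6432 in complex II, from 3105 to 13342 in complex III, from 217 to 9335 in complex IV and from 235 to 9994 in complex V. Complexes II and III were those whose lowest signals (1136 and 3105) lay above the median of all tested genes, 575. Complexes IV and V reached down to dim probe sets, those of Cox8b and Atp5pb.

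The subunits varied somewhat less between livers than all tested genes. The median SD of log2 signal was 0.18 over the 59 subunit genes, against 0.23 over all 4819 tested genes. The median ratio of the highest to the lowest liver was 1.41-fold, against 1.61-fold. The difference depended on the scaling: with every array set to a common median, the median SD was 0.230 for the subunits, against 0.245 over all tested genes. By complex, the median SD was 0.17 for complex I, 0.19 for complex II, 0.17 for complex III, 0.20 for complex IV and 0.21 for complex V. The corresponding ratios were 1.40, 1.43, 1.42, 1.45 and 1.53-fold, so the complexes lay close to each other in range. The subunits were also brighter, with a median signal of 3595 against 575, and SD tended to fall with signal. As a ratio to the SD typical of probe sets of the same signal, the median was 0.81, against 0.88. Of the 59 subunits, 45 (76.3%) lay below that typical SD, against 62.9% of all tested genes. The counts were 19 of 25 in complex I, 3 of 4 in complex II, 7 of 8 in complex III, 8 of 10 in complex IV and 8 of 12 in complex V. Bulk liver RNA was measured, so fewer cells of a type and less RNA per cell cannot be told apart in any of these values.

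A chi-square test with 7 degrees of freedom compared how far each probe set varied over the 8 livers with the typical variance at its signal, with Benjamini-Hochberg adjustment over all 6211 tested probe sets. It called 2 of the 70 member probe sets more variable than typical, at an adjusted p below 0.05, against a background of 9.97% of all tested probe sets (619 of 6211). These were the probe set of Cycs and a second probe set of Cox6c. At an unadjusted p below 0.05 the member count was 3 of 70 (4.29%), against 16.4% of all tested probe sets, and the added one was Ndufb3. In the other direction the test called 0 of 70 members less variable than typical, against a background of 0% (0 of 6211). At an unadjusted p below 0.05, 9 members (12.9%) lay on that side, against 12.6% of all tested probe sets. They were Ndufa5, Ndufa8, a probe set of Ndufb2, Ndufc1, Ndufs3, Ndufv2, Cox8c, Atp5g2 and Ndufaf1. An F test in limma, with a prior variance that allows unequal variances between genes, called 0 of 6211 probe sets in either direction and had 425 and 268 at an unadjusted p below 0.05 for more and for less variable.

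**Figure D1:**
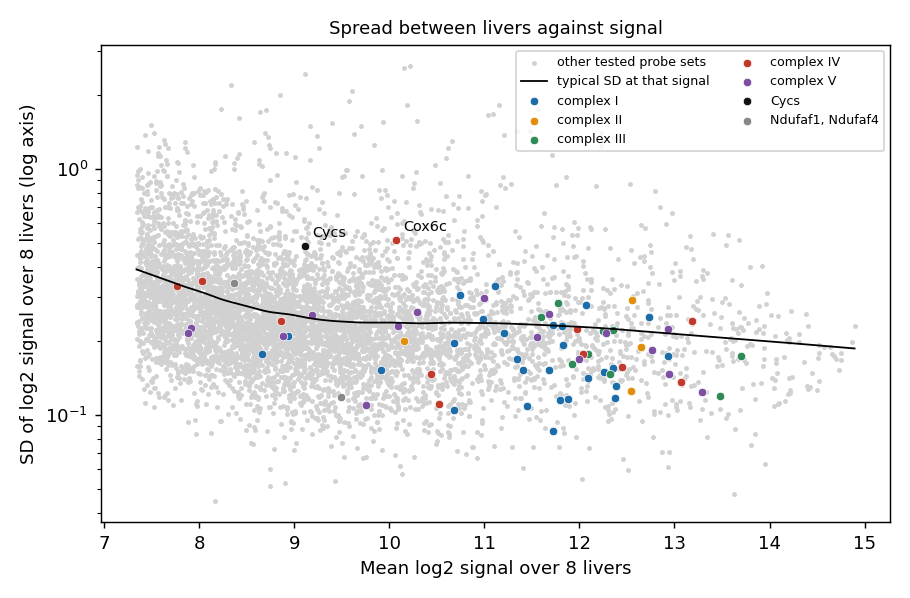
SD of log2 signal over 8 livers (log axis) against mean log2 signal for the 6211 tested probe sets, with the typical SD at each signal as a line and the member probe sets coloured by complex. Cycs (SD 0.48) and the second Cox6c probe set (SD 0.51) lie far above the line, and most subunits lie on or below it.

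Cycs encodes cytochrome c, which shuttles electrons from complex III to complex IV and triggers apoptosis when it leaves the mitochondrion. Its intensity had a lowest value of 272, a median of 589 and a highest value of 786, a 2.89-fold range (adjusted p = 0.00597, chi-square variance test). Liver 5 was the lowest and liver 4 the highest, with liver 7 next at 762. The range rested on 1 liver: in the other 7, values lay between 463 and 786, a 1.70-fold range, and the adjusted p without liver 5 was 0.897. Cycs did not follow the subunits. Its log2 signal was negatively correlated with 42 of the 59 subunit genes over the 8 livers, which share arrays and scaling, with the lowest r of -0.87 for Ndufb7 and the highest of 0.66 for Atp5k. Liver 4, where Cycs was highest, was the lowest liver for 22 of the 59 subunits (37.3%), against 22.4% of all tested genes. Red cell markers (Hba-a1, Hbb-b1 and Alas2, 2 of them on the array) summed to 15557 in liver 5 and to between 7316 and 11153 in the others, and their part in the low Cycs value was not tested.

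Cox6c encodes a small structural subunit of complex IV. The probe set that was called had a lowest value of 551, a median of 1117 and a highest value of 1567 (SD 0.51, adjusted p = 0.000553, chi-square variance test). Liver 5 was again lowest, liver 2 was highest and liver 6 was next at 1564. The brightest Cox6c probe set showed the same liver at the bottom with a smaller range: 6913 in liver 5, a median of 9647 and 11732 in liver 2, a 1.70-fold range that was not called (adjusted p = 0.852). The correlation between both probe sets was 0.70 over the 8 livers. Without liver 5 the adjusted p of the called probe set was 0.159. Its suffix in the array's naming marks a probe set designed with fewer unique probes than usual.

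**Figure D2:**
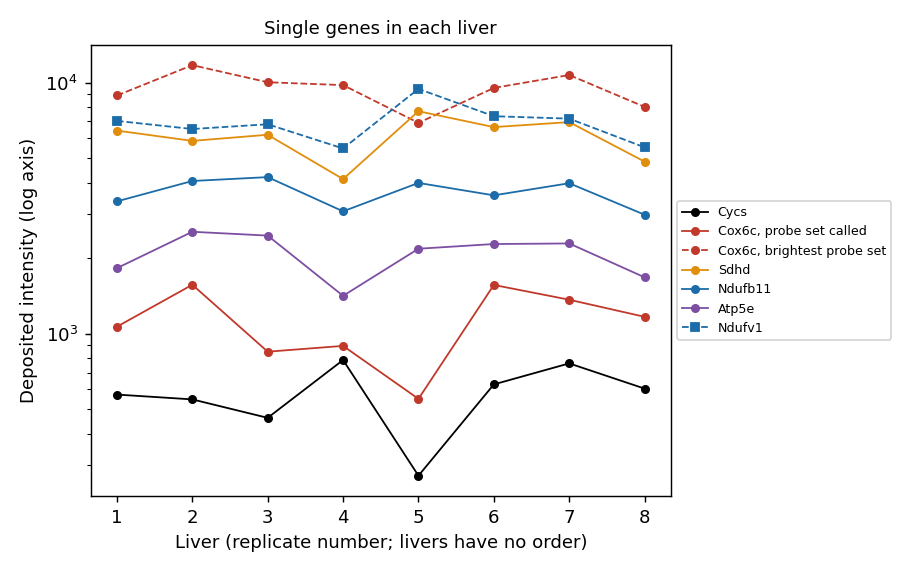
Deposited intensity (log axis) of Cycs, the called and the brightest Cox6c probe set, Ndufv1, Sdhd, Ndufb11 and Atp5e in each of the 8 livers, which have no order and are joined by lines only to guide the eye. Cycs and Cox6c are lowest in liver 5 (272, 551 and 6913), where Ndufv1 and Sdhd are highest (9438 and 7691).

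Liver 5 held extremes of the subunits in both directions, the low ones in a smaller share than over all tested genes. It was the lowest of the 8 livers for 7 of 59 genes (11.9%), against 16.0% of all tested genes, namely Ndufa2, Uqcrc2, Cox6c, Cox7b, Atp5a1, Atp5c1 and Atp5k, and the highest for 17 of 59 (28.8%), against 19.5% of all tested genes. Among the 17 were the catalytic subunit Ndufv1, the membrane anchors Sdhc and Sdhd and the core protein Uqcrc1. The SD of the centred log2 signals over the 59 genes was 0.23 in liver 5, larger than in any other liver (0.12 to 0.19). Over all tested genes it was also large in liver 5, at 0.34, against 0.43 in liver 4 and 0.23 to 0.32 in the others. A wide spread in liver 5 was thus not particular to the subunits.

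The complexes were then compared through a score, the mean over a complex of its genes' log2 signals after each gene's mean over the 8 livers was subtracted. The score of all 59 subunits was lowest in livers 4 and 8, at -0.16 and -0.13, and highest in liver 3, at 0.11. The other 5 livers lay between -0.07 and 0.07, and the highest score was 1.20-fold the lowest. Over all tested genes the same score stayed between -0.04 and 0.02. The size of the scores depended on the scaling: with arrays at a common median, liver 3 scored 0.22 over all subunits. Complex I then scored -0.24 in liver 4 and -0.21 in liver 8, against -0.17 and -0.11 as deposited. Of the 59 subunits, 49 (83.1%) were below their own mean in liver 4 and 48 (81.4%) in liver 8, against 54.5% and 51.3% of all tested genes. For 20 of 59 (33.9%), livers 4 and 8 were the lowest pair, against 11.5% of all tested genes. The largest single deviations were -0.54 for Sdhd and -0.53 for Atp5e in liver 4 and -0.49 for Ndufa13 in liver 8, and the median deviations were -0.18 and -0.15. Livers 4 and 8 were also those with the highest macrophage, interferon and acute phase sums and the highest median intensities, 178 and 181. Over all 8 livers the subunit score correlated at -0.88 with the median intensity of the array, which was lowest in liver 3 (156). Its r with the acute phase genes lay between -0.92 (Apcs) and -0.99 (Saa3). With the interferon-induced and class II genes it lay between -0.92 (H2-Aa) and -0.97 (Gbp3). With the tested macrophage markers it lay between -0.61 (Clec4f) and -0.96 (Cybb). The part of these genes or of the median intensity in the result was not tested. Hepatocyte marker scores on the same scale were -0.25 in liver 4, -0.08 in liver 8 and 0.32 in liver 3, with -0.21 in liver 6, where the subunit score was 0.04, and their part was not tested.

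**Figure D3:**
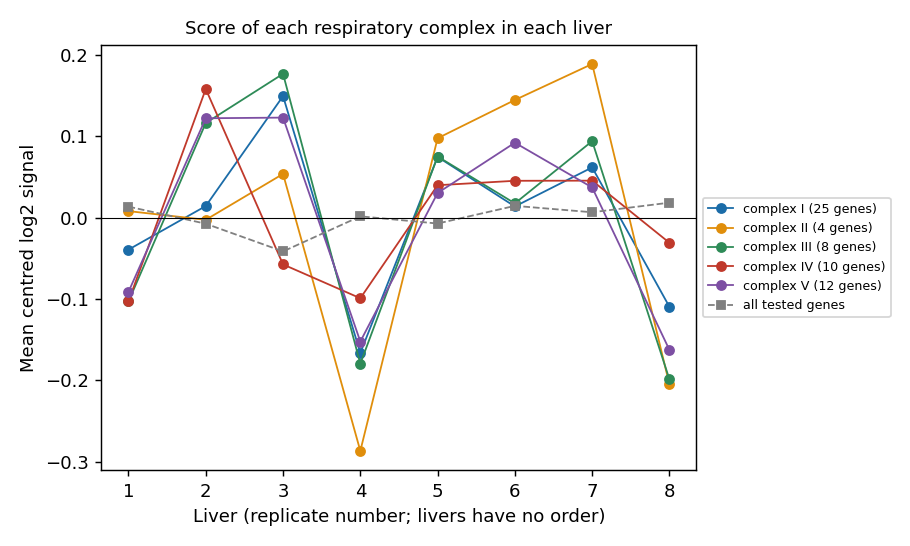
Mean centred log2 signal of each complex and of all 4819 tested genes in the 8 livers, which have no order. Complexes I, II, III and V are lowest in livers 4 and 8 (between -0.11 and -0.29), and all tested genes stay within -0.04 and 0.02. Complex IV has another profile as deposited, lowest in livers 1 and 4 (-0.10 in both) and highest in liver 2 (0.16). Its scores in livers 3 and 8 depend on the scaling and on the filter, and the liver 3 score changes sign with both.

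Livers 4 and 8 did not lower every complex by the same amount. Complex II had the lowest scores of all, -0.29 in liver 4 and -0.20 in liver 8, and a range of 1.39-fold over the 8 livers. Complex III scored -0.18 and -0.20 (range 1.30-fold), complex I -0.17 and -0.11 (1.24-fold), and complex V -0.15 and -0.16 (1.22-fold). Every gene of complexes II and III, 4 of 4 and 8 of 8, was below its own mean in both livers. In complex I the counts were 20 and 19 of 25, and in complex V 10 of 12 in each. Complex IV scored -0.10 in liver 4 and -0.03 in liver 8, with 7 of 10 genes below their mean in each, and its lowest score, -0.10, was in liver 1. The complex IV scores of livers 3 and 8 depended on the filter and on the scaling: among genes above the 75th percentile of signal they were 0.096 and -0.14, against -0.06 and -0.03 over all 10 genes, and with arrays at a common median they were 0.055 and -0.13 over all 10. None of these differences between complexes has a test, since the genes of a complex share the same 8 arrays.

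Agreement between genes was highest within complexes III and II. The mean Pearson r over gene pairs and 8 livers was 0.60 for complex III (28 pairs), 0.56 for complex II (6 pairs), 0.29 for complex V (66 pairs), 0.27 for complex I (300 pairs) and 0.13 for complex IV (45 pairs). It was 0.30 over the 1711 pairs of all subunits and 0.005 over all pairs of tested genes. All pairs share the arrays and their scaling, and with arrays set to a common median the value was 0.50 for the subunits and 0.068 for all tested genes. Livers 4 and 8 carried part of it: without them the mean r was 0.15 over all subunits and 0.003 over all tested genes. In complex III it was then 0.39, and in complex II only 0.052. Complexes I, IV and V were at 0.15, 0.085 and 0.18 without them.

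Between complexes, the scores of complexes III and V correlated at 0.95, I and III at 0.94, I and V at 0.85, I and II at 0.83, and II at 0.77 with both III and V. Complex IV had lower values with each of the others as deposited, with 0.38 for I, 0.48 for II, 0.57 for III and 0.66 for V. Over the 6 livers without livers 4 and 8, complexes I and III still stood at 0.85 and III and V at 0.85, and complex I and V at 0.58. Complex II was at 0.26 with I, 0.14 with III and 0.11 with V, so its agreement with the others rested on those livers. The complex IV values depended on the scaling, on the filter, on single livers and on the probe sets. With arrays at a common median they were 0.76, 0.76, 0.86 and 0.89. Among genes above the 75th percentile of signal they were 0.69, 0.61, 0.87 and 0.87. The value with complex I was 0.68 without liver 3 and 0.12 without liver 4. With the probe sets left out whose suffix marks shared sequence or relaxed probe rules, 5 complex IV genes remained, and their score correlated at 0.77 with complex I, 0.72 with II, 0.85 with III and 0.66 with V. The values of complex V depended on these probe sets as well. Its 9 remaining genes had a score that correlated at 0.54 with complex I, 0.67 with II and 0.64 with III, below complex IV in each case. Complexes I and III stayed at 0.93.

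**Figure D4:**
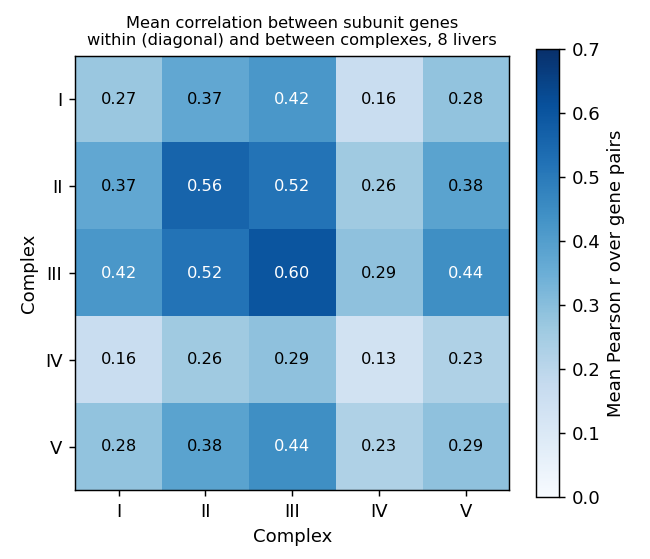
Mean Pearson correlation over gene pairs within each complex (diagonal) and between complexes over the 8 livers. Values run from 0.13 within complex IV to 0.60 within complex III, with complexes II and III at 0.52 with each other.

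Single genes were set against the mean of all other subunits. The correlation was above 0.5 for 37 of 59 genes: 15 of 25 in complex I, 4 of 4 in complex II, 7 of 8 in complex III, 4 of 10 in complex IV and 7 of 12 in complex V. Without livers 4 and 8 the counts were 27 of 59 in all and 11, 1, 7, 4 and 4 by complex. With the suffixed probe sets left out they were 26 of 44 in all. By complex they were then 11 of 21, 3 of 3, 6 of 6, 3 of 5 and, in complex V, 3 of 9. Highest were Atp5e (0.97), Ndufb11 (0.96), Ndufb10 (0.95) and Uqcrh (0.94), and lowest were Cox8b (-0.58), Ndufa8 (-0.36) and Cox6b1 (-0.11). The closest pair of genes, Atp5l and Uqcrc1, had an r of 0.985, and the most opposed, Ndufa2 and Cox6b1, one of -0.94. The extremes are those of 1711 pairs over 8 livers and carry no test.

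Complex I is the entry point for electrons from NADH. Of the core subunits that are encoded in the nucleus and carry the flavin, the iron-sulfur clusters and the quinone site, Ndufs1, Ndufs3, Ndufv1 and Ndufv2 were measured, and the others were not analysed here. Ndufv1, which binds NADH and the flavin, had a lowest value of 5467, a median of 6931 and a highest value of 9438. It was lowest in livers 4 and 8 (5467 and 5524) and highest in liver 5, with the other 5 livers between 6534 and 7347. Its partner in the NADH-oxidising module, Ndufv2, was the most uniform of all subunits: 3128, 3396 and 3687 in the lowest, median and highest liver, a 1.18-fold range (SD 0.09). A dimmer second Ndufv2 probe set ran from 385 to 570, and the correlation between both was 0.57. Ndufs1, the largest iron-sulfur subunit, ran from 1526 in liver 4 to 2604 in liver 6 with a median of 2032. Ndufs3 was more uniform, from 3347 in liver 4 to 4090 in liver 6 with a median of 3886. The core subunits as a set were lowest in livers 4 and 8, with scores of -0.21 and -0.18, and the 21 supernumerary subunits scored -0.16 and -0.10.

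The supernumerary subunits surround the core and are needed to assemble it. The brightest was Ndufb5, at 6775 in liver 1, a median of 7682 and 9250 in liver 3. Ndufb3 had the largest SD of complex I (0.34), with 1599 in liver 2, a median of 2282 and 3157 in liver 5, and liver 4 was close to the lowest at 1709. The gene that followed the other subunits most closely here, Ndufb11, had 2978 in liver 8 and 3072 in liver 4, a median of 3766 and 4204 in liver 3. Ndufb9 had the same extreme livers with a wider range, 3349 in liver 8 and 5807 in liver 3, and Ndufa13, also known as GRIM-19, had 1220 and 2410 in them, a 1.98-fold range. Ndufab1, the mitochondrial acyl carrier protein that also serves lipoic acid synthesis, ran from 1953 in liver 2 to 2858 in liver 3 and was above its mean in liver 4, at 2710. Ndufa8 ran against most other subunits, with 1490 in liver 3, a median of 1641 and 1831 in liver 6, but its range was only 1.23-fold.

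The assembly factors of complex I are not part of the finished enzyme. Ndufaf1, needed for an early membrane intermediate, had a lowest value of 608 in liver 4, a median of 722 and a highest value of 794 in liver 2, and correlated at 0.83 with the subunit mean. Ndufaf4 had 213 in liver 5, a median of 331 and 484 in liver 1, and correlated at -0.35.

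Complex II, succinate dehydrogenase, belongs to both the tricarboxylic acid cycle and the respiratory chain, and all 4 of its subunits were measured. Sdha, the flavoprotein that oxidises succinate, had 960 in liver 4, a median of 1122 and 1345 in liver 6. Sdhb, the iron-sulfur subunit, was the least variable of the 4, with 5135 in liver 4, a median of 5894 and 6670 in liver 3. Both were high in livers 3, 6 and 7 and low in livers 4, 5 and 8. The membrane anchors had another profile. Sdhd had 4128 in liver 4, a median of 6318 and 7691 in liver 5, a 1.86-fold range, the largest of complex II (SD 0.29). Sdhc, the brightest, had 5379 in liver 8, a median of 6470 and 7795 in liver 5. The anchors were thus both highest in liver 5, where the catalytic subunits were below their means.

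Complex III is a dimer whose cytochromes and iron-sulfur protein carry electrons from ubiquinol to cytochrome c. Cyc1, cytochrome c1, had the smallest SD of complex III (0.12), with 10217 in liver 8, a median of 11599 and 13144 in liver 3. A dimmer second probe set of Cyc1 gave a different profile, from 2829 in liver 4 to 5242 in liver 5, and the correlation between both was 0.02, so the profile of Cyc1 depends on the probe set. Uqcrq, a small subunit near the ubiquinone site, was the brightest, with 11516 in liver 8, a median of 13269 and 16259 in liver 3. The core proteins, which resemble mitochondrial processing peptidase, went apart. Uqcrc1 had 4222 in liver 4, a median of 5239 and 6611 in liver 5. Uqcrc2 had 2368 in liver 5, a median of 3071 and 3949 in liver 2 (SD 0.25, the largest of complex III among its genes' brightest probe sets). Its probe set shares sequence with others, and its correlation with the rest of the complex was 0.20. The other small subunits kept together: Uqcr10, Uqcr11, Uqcrb and the hinge protein Uqcrh each correlated with the rest of complex III at 0.83 to 0.93. Uqcrh had 3226 in liver 4, 3406 in liver 8, a median of 3928 and 4446 in liver 3.

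Complex IV, cytochrome c oxidase, has subunits with forms particular to liver and to heart and skeletal muscle. Cox6a1, the liver form of subunit VIa, had 7670 in liver 8, a median of 8537 and 9768 in liver 3, whereas Cox6a2, the muscle form, stayed at or below 90.0 in every liver. Cox7a2, the liver form of subunit VIIa, had 4756 in liver 4, a median of 5601 and 6386 in liver 5, and the muscle form Cox7a1 stayed at or below 74.5. The related Cox7a2l, which takes part in joining complexes III and IV into supercomplexes, had 1182 in liver 8, a median of 1393 and 1576 in liver 6. For subunit VIb, the probe set of Cox6b1, the widely expressed form, was dim and had the largest SD among the brightest probe sets of complex IV (0.35), with 165 in liver 3, a median of 278 and 344 in liver 5. The probe sets of the testis form Cox6b2 stayed at or below 64.7 in all 3 cases. Of subunit VIII, the widely expressed form Cox8a had 1 probe set, at or below 65.7, the muscle form Cox8b had 155 in liver 3, a median of 229 and 299 in liver 8, and the testis form Cox8c had 1293 in liver 4, a median of 1481 and 1613 in liver 2. Cox8b and Cox8c each rest on 1 tested probe set: the second Cox8b probe set had a mean of 30.8 and the second Cox8c probe set a mean of 5.19. What the bright Cox8c probe set and the dim Cox8a probe set measure was not tested.

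Cox4i1, the ubiquitous form of the largest nuclear subunit, had 370 in liver 1, a median of 457 and 603 in liver 2. These values are from a probe set with a suffix for shared sequence or relaxed probe rules. The other Cox4i1 probe set has no such suffix, was below the signal filter and was highest in liver 5, at 191. Both probe sets of Cox5a, a subunit on the matrix side, stayed at or below 67.9, and whether they measure its transcript was not tested. Cox5b, the zinc-binding subunit, had an r of 0.86 with all other subunits and 0.33 with the rest of complex IV. Cox6a1 (0.82 and 0.41) and Cox7a2 (0.83 and 0.44) showed a like gap. Cox5b had 3418 in liver 8, a median of 4340 and 4904 in liver 3. Cox7b had 3214 in liver 5 and 3244 in liver 1, a median of 4182 and 4717 in liver 2, and its closest partner was Uqcrc2 of complex III, at 0.96.

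Complex V, the ATP synthase, joins a catalytic head to a rotating ring in the membrane. Atp5a1, the alpha subunit of the head, was the brightest, with 8491 in liver 5, a median of 10367 and 10970 in liver 3, and the beta subunit was not analysed here. Atp5c1, the gamma subunit of the central stalk, had 5901 in liver 5 and 5915 in liver 8, a median of 7094 and 8080 in liver 3, and its other probe set agreed at 0.70. Atp5e, the small epsilon subunit of the stalk, had the largest SD of complex V (0.30) and was the gene closest to all other subunits. It had 1416 in liver 4, 1678 in liver 8, a median of 2228 and 2547 in liver 2. Its only probe set carries the same suffix as the called probe set of Cox6c. Atp5e therefore drops out where suffixed probe sets are left out. The delta subunit Atp5d had 4 tested probe sets whose mean pairwise r was -0.02 (from -0.49 to 0.71). The brightest ran from 907 in liver 8 to 1559 in liver 2, and the profile of Atp5d is uncertain for that reason.

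Among the subunits of the stator and the membrane part, Atp5o, which links the stator to the head, had 2588 in liver 8, a median of 3155 and 4299 in liver 6. Atp5pb, subunit b, had a dim probe set with 193 in liver 2, a median of 231 and 313 in liver 5. Atp5l, subunit g, had 6740 in liver 4, a median of 8072 and 9264 in liver 5, and Atp5md, a small membrane subunit, had 6497 in liver 8, 6704 in liver 4, a median of 7982 and 9859 in liver 3. Subunit c, which forms the rotating ring, is encoded by several genes for 1 mature protein. Atp5g1 stayed at or below 166 in 2 probe sets and was not tested. Atp5g2 was among the most uniform members, with 762 in liver 4, a median of 858 and 957 in liver 3 (SD 0.11), and Atp5g3 was not analysed here.

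**Figure D5:**
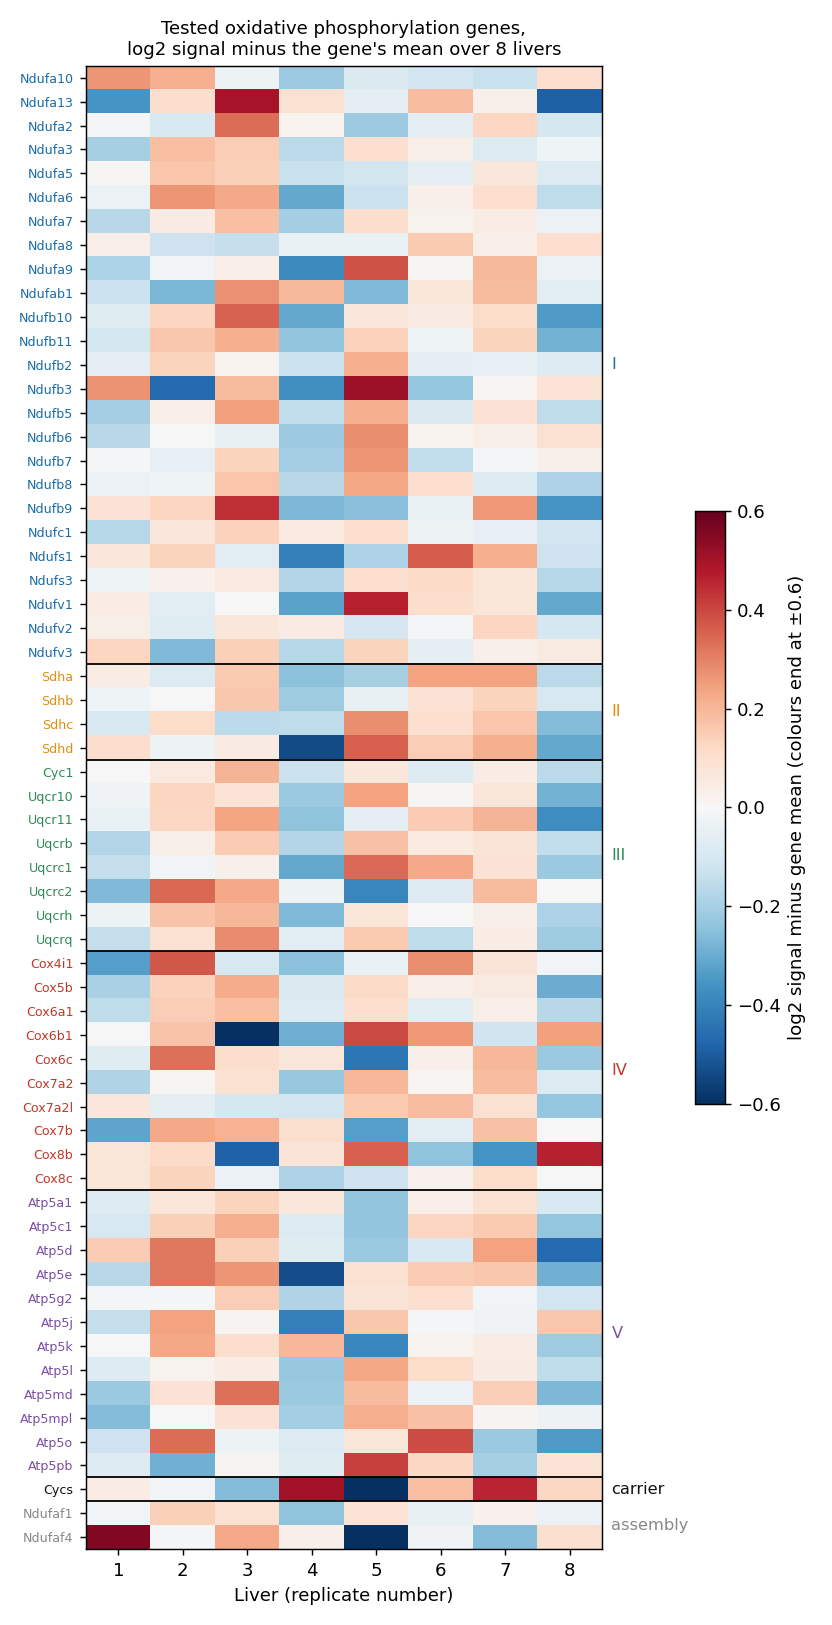
Log2 signal minus the gene's mean over 8 livers for the 62 tested member genes (rows, grouped by complex), with livers in columns and colours ending at ±0.6. Livers 4 and 8 are mostly blue (49 and 48 of 59 subunits below their mean), liver 3 is mostly red (47 of 59 above), and Cycs is high in liver 4 and low in livers 3 and 5.

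In all, 21 member genes had several probe sets, of which 6 had several that were tested. Besides those of Atp5c1, Atp5d, Cox6c, Cyc1 and Ndufv2 given above, the tested pair of Ndufb2 agreed at 0.68. The remaining 15 genes had at most 1 tested probe set. Where one was tested, the partners were dimmer, with a mean of 144 for Ndufa3, 150 for Atp5l, 151 for Cox4i1, 80.8 for Atp5g2 and between 3.46 and 33.3 for Ndufb6, Ndufb7, Ndufb10, Ndufaf1 and Ndufaf4.

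The genes around the chain were examined through 3 lists. Of 39 genes for assembly and protein import, 23 were on the array and all 23 were tested, with 0 called more variable and 0 less variable by the chi-square test and a median SD of 0.18, against 0.23 over all tested genes. Over all tested probe sets the shares called were 9.97% and 0%. Timm23, the channel of the inner membrane, had a narrow range, from 2477 in liver 4 to 3025 in liver 5. Of 16 genes for carriers and electron transfer to ubiquinone, 15 were on the array and 13 were tested, and 1 (7.69%) was called more variable, near the 9.97% of all tested probe sets. This was Gpd2, the mitochondrial glycerol-3-phosphate dehydrogenase and a thyroid hormone target in rodent liver, with 259 in liver 5, a median of 513 and 663 in liver 2 (adjusted p = 0.0103, chi-square variance test). Liver 5 was the lowest liver for 6 of the 13 (46.2%), against 16.0% of all tested genes: Gpd2, the adenine nucleotide translocase Slc25a5, the channels Vdac2 and Vdac3, Etfa and Etfdh. It was the highest for 1, Aifm1.

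Of 17 regulators of the respiratory chain genes, 14 were on the array and 9 were tested, with 0 called more variable and 0 less variable, where 9.97% and 0% of all tested probe sets were called. The coactivators Ppargc1a and Pprc1, the mitochondrial transcription factor Tfam, the polymerase Polg and the deacetylase Sirt1 were below the signal filter. Esrra, which encodes ERR-alpha, had 791 in liver 8, a median of 997 and 1174 in liver 5. Gabpa, the DNA-binding part of GABP, had 468 in liver 5, a median of 649 and 769 in liver 3. Yy1 had 532 in liver 6, a median of 662 and 911 in liver 2. The profile of Esrra was nearer to the subunit score (r = 0.76 over 8 livers) than those of Gabpa (-0.12) and Yy1 (0.41), as a description of RNA levels that share the arrays. Nrf1, the gene for NRF-1, was not among the 14. In the list of carriers and electron transfer, Etfb (0.90) and Coq9 (0.87) lay nearer to the score than Esrra, while Slc25a4 ran against it (-0.80).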

How the data were processed

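The authors deposited linear intensities, 1 for each probe set of an array. Their image software is not given in the sources consulted, nor is the scaling. Trimmed mean intensities of the 8 arrays differed by 0.00896%, so values were used as deposited, which makes each level relative to the others on its array. Setting arrays to a common median moved them by -0.10 (liver 8) to 0.11 (liver 3) log2 units. Intensities under 11.2, the 10th percentile, were set to it before log2, and 66 control probe sets were left out. Symbols came from the platform annotation: 10833 probe sets had 1 symbol, 396 several and 1193 none. The 10 probe sets with a member symbol and another one were left out, and 0 member symbols differed from RefSeq (101 of 101 matched).

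Typical variance came from a loess curve of log variance on mean log2 signal (span 0.3, SciPy 1.17.1, numpy 2.4.6). The chi-square test was one-sided in each direction. limma 3.58.1 in R 4.3.3 gave the alternative F test (prior degrees of freedom 4.90). Both were run on simulated data in which all probe sets of like signal shared a common spread, apart from those altered on purpose. Such data do not hold unequal variances between genes, so they cannot show whether the p-values hold here. P-values measure only the spread between these 8 samples. The number of arrays limits the precision. Correlations, scores and list counts are descriptions without a test.

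The members and gene lists were chosen with earlier results of these data known. Genes named with values were, in each complex, those with the highest signal and the largest and smallest SD, all called members, the subunit c genes, the tissue forms and genes with several probe sets. The others were named after their values were seen. Alternatives covered scaling, floor, filter, left-out arrays, arrays 1 to 4 and 5 to 8 centred separately (mean log2 spike-in signals 8.39 to 8.67 and 7.88 to 8.18), probe sets with a suffix for shared sequence or relaxed probe rules, span, limma, averaged probe sets and Spearman's rho.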

Additional observations from a re-analysis of the deposited data

How the results depend on the processing

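No paired analysis was possible because all samples form 1 group. The count of 2 more variable members was 6 of 101 with no filter on low signals (20.3% of all probe sets), 1 without suffixed probe sets, 0 with limma (adjusted p 0.755 for Cycs and 0.647 for Cox6c) and 0 to 2 with single livers left out, 0 without liver 5. Less variable members were 5 of 101 with no filter (3.53% of all probe sets), and 0 with each liver left out. The mean pairwise r with arrays at a common median was 0.519, 0.737, 0.256, 0.497 and 0.502 for complexes I, III, IV and V and all subunits. Quantile normalization gave 0.453 for III, no filter 0.181 for all, the 75th percentile filter 0.288 for IV and 0.422 for V, and leaving out suffixed probe sets 0.137 for V. Without livers 4 and 8 it was 0.0525 for II, 0.394 for III and 0.151 for all, and with single livers left out 0.236 (liver 4) to 0.364 (liver 5) for all. The median SD at a common median was 0.207, 0.231, 0.231, 0.240 and 0.230 for I, II, III, IV and all, and without livers 4 and 8 0.146, 0.149, 0.125 and 0.153 for I, II, III and all. It was 0.136 for III after quantile normalization, 0.241 for IV and 0.203 for all with no filter, and 0.157 for IV with the 75th percentile filter and 0.157 without suffixed probe sets. The score of liver 3 at a common median was 0.262 for I and 0.219 for all, and for IV it turned sign to 0.0548, as it did with the higher filter (0.0958) and without suffixed probe sets (0.0770), and was -0.312 with no filter. With no filter IV scored 0.210 in liver 5, -0.225 in liver 6 and 0.250 in liver 8 (the sign turned in livers 6 and 8), and all subunits -0.0193 in liver 8. Liver 8 scored for IV -0.132 at a common median, -0.142 with the higher filter and -0.121 without suffixed probe sets. Where fewer probe sets or livers were used, that is the difference in construction, and otherwise the cause was not tested. The other 1081 values gave the same count or moved by less than the spread of the result between livers or between left-out livers. Signal over background limits the dim members, since no detection calls were used.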
